A study of Homo sapiens with 6 samples.

Results

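The genes described here are 9 enzymes that carry pyruvate carbon into and around the tricarboxylic acid (TCA) cycle: PDHA1, PDHB, CS, IDH2, IDH3A, OGDH, SUCLG1, FH and MDH2. They were chosen by gene symbol from the 58735 genes of the deposited tables, and each symbol occurred once. The samples were human MUM2B cells, labelled melanoma, in 2 stable forms that, per the labels, differed in the construct: an empty vector or a vector that overexpresses LACTB, with 3 libraries each. Both forms grew in the same serum-supplemented medium, and the labels name no drug, time course or clone. The question addressed is which of these RNAs change when LACTB is overexpressed.

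Pyruvate made by glycolysis enters mitochondria and is oxidised to acetyl-CoA by the pyruvate dehydrogenase complex. The cycle then condenses acetyl-CoA with oxaloacetate, releases its carbon as carbon dioxide and hands the electrons to the respiratory chain. The complex is switched off when kinases phosphorylate its alpha subunit and on when phosphatases remove that phosphate. LACTB is a filament-forming, serine protease-like protein of the mitochondrial intermembrane space, a compartment next to the matrix in which all 9 enzymes work.

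LACTB itself was at 3.81, 3.39 and 4.71 FPKM (fragments normalised to exon length and library size) in empty vector replicates 1 to 3, and at 173.9, 169.3 and 161.5 FPKM in LACTB replicates 1 to 3, so no library went against its label. The libraries held 16978799 to 18395631 reads in genes. Empty vector replicate 3 stood apart from the other libraries of its group: genes of the mitochondrial genome took 3.61% of its reads, against 5.54% and 5.62% there and 4.65% to 5.04% in the LACTB libraries. Of 8 melanocytic markers, all had a mean under 1 FPKM and S100B was listed at 0 in every library, so the defining markers of the labelled lineage were at or near 0. Endothelial, leukocyte and fibroblast markers (15 genes) also had means under 1 FPKM, with CD3E and DCN at 0. The simple-epithelium keratins KRT8 and KRT18 lay above 140 FPKM in all libraries, whereas the keratin KRT19, EPCAM and CDH1 lay below 0.4 FPKM. The summed level of the 5 epithelial markers, nearly all from KRT8 and KRT18, was 340.2 to 351.8 FPKM with empty vector and 304.2 to 311.3 FPKM with LACTB. The sum of the melanocytic markers was 1.26 to 1.34 and 1.70 to 2.13 FPKM, and that of the 5 endothelial markers 0.820 to 0.877 and 0.584 to 0.690 FPKM. Few genes made these shifts. Of the melanocytic markers only TYRP1 (means 0.294 and 0.643 FPKM) and MITF (0.657 and 0.864 FPKM) did not overlap between the groups. Of the endothelial markers only PECAM1 (0.393 and 0.147 FPKM) did not, while TEK and CLDN5 had higher means with LACTB. Over the 11875 genes averaging 1 FPKM or more, a minimum these markers did not reach, 22.3% lay above and 25.1% below without overlap. The part of the marker shifts in the results below was not tested. In bulk RNA, fewer cells of a type and less RNA per cell cannot be told apart.

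Of the 9 enzymes, 5 fell in LACTB cells: PDHA1, PDHB, IDH2, SUCLG1 and FH. The falls were small, from 9.44% of the empty vector mean for FH to 22.7% for PDHB. No member rose (limma, adjusted p under 0.05; at an unadjusted p under 0.05, 1 was higher and 6 were lower). Over all 11875 tested genes, 17.2% fell and 14.8% rose at that adjusted p. At an unadjusted p under 0.05, 2361 of these 11875 genes were higher and 2668 lower. The median log2 fold change was -0.17 over the 9 enzymes and -0.01 over all tested genes. In 6 of the 9, all LACTB libraries lay below all empty vector libraries, and in 1, MDH2, all lay above, against 25.1% and 22.3% of all tested genes. The calls were fragile: 2 or 3 of the 9 were lower when any 1 library was left out. When the values were rescaled to TPM (the same values brought to an equal sum in each library), 0 were lower. The minimum mean of 1 and the added 1 were then in TPM, so 16070 genes were tested, of which 8.06% were lower and 10.0% higher. The part of the rescaling alone in the lost calls was not tested. Only PDHA1 and PDHB kept their call without each of the 6 libraries in turn.

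**Figure D1:**
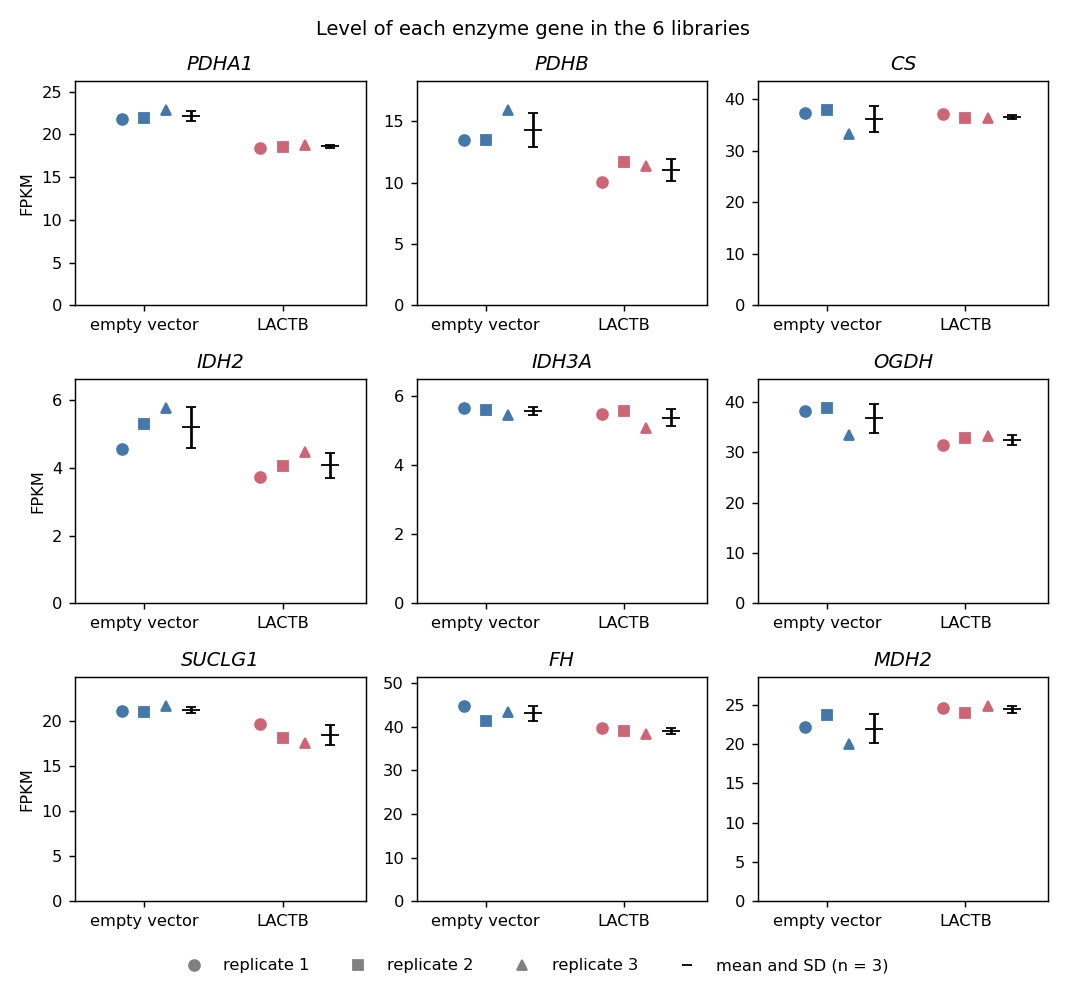
FPKM of the 9 enzyme genes (vertical axes, each from 0) in the 3 empty vector and 3 LACTB libraries; symbols give the replicate and the black bars the mean and SD (n = 3). PDHA1, PDHB, IDH2, OGDH, SUCLG1 and FH have all LACTB libraries below the empty vector libraries, MDH2 has them above, and CS and IDH3A overlap.

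PDHA1 and PDHB encode the alpha and beta subunits of the decarboxylase that starts the pyruvate dehydrogenase reaction. PDHA1 (ENSG00000131828; GRCh38 chromosome X, 19343893 to 19361705, plus strand) stood at 21.8, 21.9 and 22.8 FPKM with empty vector and at 18.4, 18.6 and 18.8 FPKM with LACTB. The 2 groups were well apart and each was tight, with means of 22.2 ± 0.56 and 18.6 ± 0.162 FPKM (SD, n = 3 each). The log2 fold change of PDHA1 was -0.24 (SE 0.038; adjusted p = 0.0036 by limma), on 1435 to 1847 reads a library. This was the most stable call of the set, below 0.05 in 18 of 19 alternatives and at adjusted p = 0.0503 as TPM.

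PDHB (ENSG00000168291; GRCh38 chromosome 3, 58427630 to 58433857, minus strand) stood at 13.5, 13.5 and 15.9 FPKM with empty vector and at 10.1, 11.7 and 11.4 FPKM with LACTB. Empty vector replicate 3 was the highest and LACTB replicate 1 the lowest, with no overlap. The log2 fold change was -0.34 (SE 0.080; adjusted p = 0.0173 by limma), and -0.27 (adjusted p = 0.0302) without empty vector replicate 3. The call of PDHB was lost as TPM (adjusted p = 0.0821) and without a filter on low values (adjusted p = 0.064). The ratio of PDHA1 to PDHB was 1.62, 1.62 and 1.43 with empty vector and 1.83, 1.59 and 1.65 with LACTB, and these overlap (exact permutation test, two-sided, p = 0.4, adjusted p = 0.714).

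The upstream sequences of this pair are shown because both subunits fell together, with that of CS, which did not pass the test, beside them. They are the 250 bases before the RefSeq start (GRCh38.p14, 5′ to 3′ on the gene's strand) of PDHA1 at chrX:19343677-19343926, PDHB at chr3:58433833-58434082 (minus strand) and CS at chr12:56300331-56300580 (minus strand). Capitals mark the CCAAT box (CCAAT, or ATTGG on the other strand) and the MYC-type E-box (CACGTG).
PDHA1: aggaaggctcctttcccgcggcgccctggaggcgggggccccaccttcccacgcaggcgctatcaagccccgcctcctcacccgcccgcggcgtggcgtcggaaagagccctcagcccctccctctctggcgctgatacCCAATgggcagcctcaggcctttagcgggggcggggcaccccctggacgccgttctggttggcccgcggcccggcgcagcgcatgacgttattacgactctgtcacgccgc
PDHB: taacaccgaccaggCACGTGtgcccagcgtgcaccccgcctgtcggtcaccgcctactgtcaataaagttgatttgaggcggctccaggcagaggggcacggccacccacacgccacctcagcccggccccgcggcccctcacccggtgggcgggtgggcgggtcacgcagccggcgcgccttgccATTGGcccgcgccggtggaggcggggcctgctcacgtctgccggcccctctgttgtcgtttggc
CS: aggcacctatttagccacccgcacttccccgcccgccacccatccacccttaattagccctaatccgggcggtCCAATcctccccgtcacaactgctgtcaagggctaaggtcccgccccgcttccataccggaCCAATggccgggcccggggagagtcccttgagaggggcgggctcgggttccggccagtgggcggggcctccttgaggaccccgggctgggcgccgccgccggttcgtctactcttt
A CCAAT box begins 111 bases before the start of PDHA1 and 64 bases before that of PDHB, there on the opposite strand, while CS has it 177 and 116 bases before. The E-box of PDHB lies 236 bases before the start. FH, whose window is not printed, holds 2 CCAAT boxes, so 4 of the 8 members with a promoter entry have one, against 32.0% of all 35116 windows of that length. SUCLG1, IDH3A and IDH2 hold the TEAD core GGAATG (3 of 8, against 11.9%), PDHB alone the E-box (against 6.34%), and IDH3A alone the NRF1 core with 1 free base (against 5.07%). The windows of SUCLG1, IDH3A and IDH2 lie wholly inside the span that GENCODE gives the gene, at an inner start. The exact NRF1 core (1.03% of all windows), the oestrogen-related receptor core AAGGTCA (3.44%) and the ATF4-type core TGATGNAA (3.14%) were found in no member's window. Both strands were searched, and an exact NRF1 core also counts for the form with 1 free base. The matches are letters only: members that fell and members that did not pass the test both hold CCAAT.

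Among the partners of this pair in the complex, DLAT went the other way. DLAT, the lipoyl-bearing acetyltransferase core, rose from 12.9, 12.8 and 13.2 FPKM to 19.8, 20.7 and 21.3 FPKM (log2 fold change 0.63, SE 0.042; adjusted p = 0.000102 by limma), with the 3 LACTB libraries far above the others. The ratio of PDHA1 to DLAT, both per exon length, went from 1.69, 1.71 and 1.73 to 0.933, 0.898 and 0.882, a difference of -0.92 on the log2 scale without overlap (exact permutation test, two-sided, p = 0.1, adjusted p = 0.333 over the 10 ratios computed). A p of 0.1 is the smallest that 3 against 3 libraries can give. DLD, the dehydrogenase subunit shared with the alpha-ketoglutarate complex, stood at 14.2 ± 0.763 and 15.0 ± 0.689 FPKM (adjusted p = 0.381), and PDHX, which anchors DLD, at 13.0 ± 0.441 and 13.8 ± 0.391 FPKM (adjusted p = 0.171).

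Among the regulators, PDP1, the main phosphatase that turns the complex on, fell from 22.0, 24.1 and 24.2 FPKM to 14.6, 15.3 and 14.4 FPKM, 37.0% lower (log2 fold change -0.63, SE 0.050; adjusted p = 0.000195 by limma). The groups did not overlap, and the call of PDP1, like that of DLAT, held in all 19 alternatives. The second phosphatase, PDP2, was at 2.49 ± 0.246 and 2.42 ± 0.0901 FPKM (adjusted p = 0.811). Per exon length the inhibitory kinases were low: PDK1 at 1.21 ± 0.0765 and 1.08 ± 0.0567 FPKM (adjusted p = 0.459), PDK2 at 1.32 ± 0.15 and 1.32 ± 0.146 FPKM (adjusted p = 0.975). PDK1 held 273 to 343 reads a library and PDK2 117 to 143. Levels per transcript length were not computed for the kinases, so their rank beside other genes is not settled. PDK3 (0.822 ± 0.119 and 0.600 ± 0.194 FPKM) and PDK4 (0.168 ± 0.0353 and 0.245 ± 0.000966 FPKM) lay under the expression minimum and were not tested. Over the 10 tested of 12 partners, regulators and pyruvate carriers, 1 rose and 1 fell, with a median log2 fold change of -0.001. Of all tested genes, 14.8% rose and 17.2% fell.

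**Figure D2:**
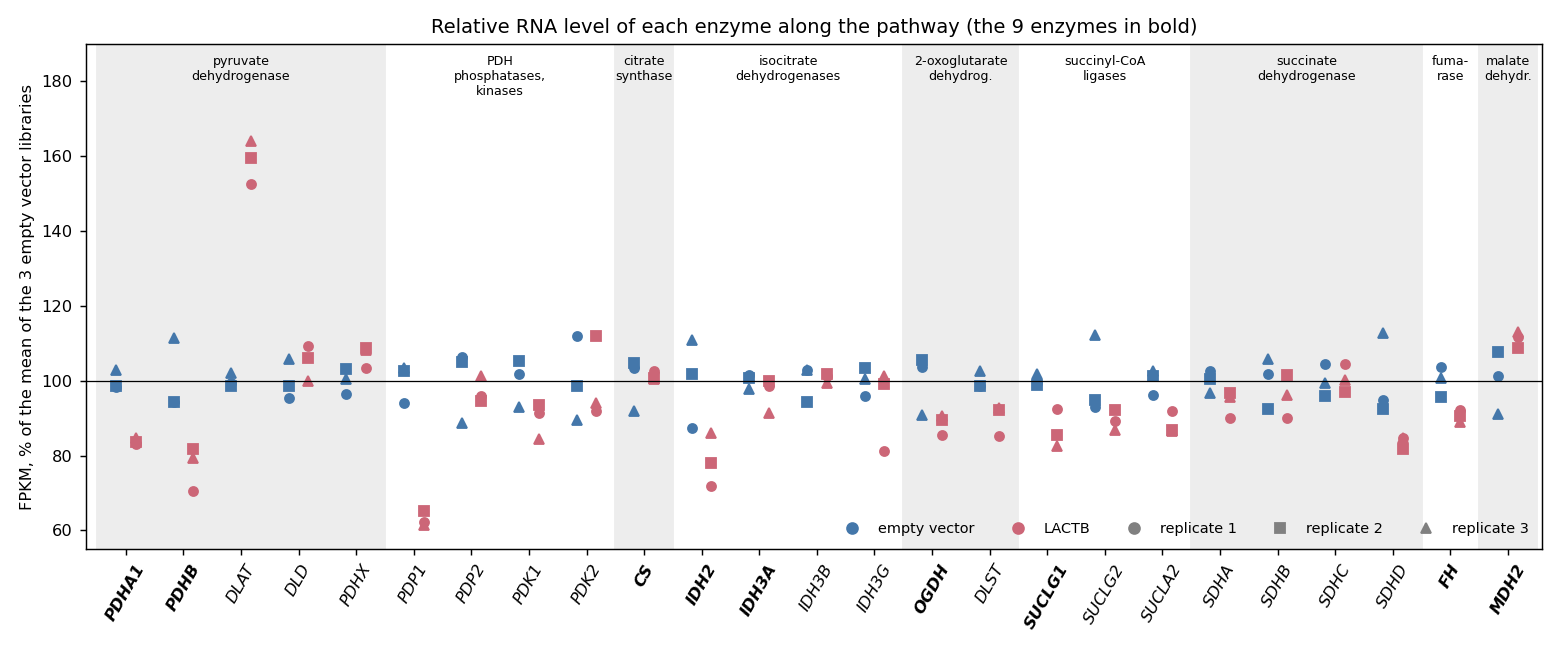
FPKM of each gene in each library as a percentage of the mean of the 3 empty vector libraries (vertical axis), ordered along the pathway, with the 9 enzymes in bold and symbols for the replicate. DLAT and PDP1 stand farthest from 100%, and most LACTB points of the bold genes lie within 25% of it.

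CS, citrate synthase, which opens the cycle, did not pass the test. It stood at 37.3, 37.8 and 33.2 FPKM with empty vector and at 37.0, 36.4 and 36.3 FPKM with LACTB, where the LACTB libraries lay inside the empty vector range. Its log2 fold change was 0.020 with a 95% interval of -0.11 to 0.15 (adjusted p = 0.811), and it turned to -0.038 without empty vector replicate 3 (adjusted p = 0.481) and to -0.011 with library weights.

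The 2 isocitrate dehydrogenases among the members use different cofactors, IDH2 reducing NADP and IDH3A, the catalytic subunit of the cycle's own enzyme, reducing NAD. IDH2 (ENSG00000182054; GRCh38 chromosome 15, 90083045 to 90102504) had the lowest mean of the members, at 4.55, 5.29 and 5.76 FPKM with empty vector and 3.73, 4.05 and 4.47 FPKM with LACTB, on 190 to 292 reads a library. The highest LACTB and the lowest empty vector library nearly touched. Its log2 fold change was -0.28 (SE 0.088; adjusted p = 0.0456 by limma), a call held without empty vector replicate 1 (adjusted p = 0.0231) and lost without each of the other 5 libraries (adjusted p = 0.051 to 0.126).

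IDH3A stood at 5.66, 5.61 and 5.46 FPKM and at 5.50, 5.57 and 5.09 FPKM, overlapping groups with a log2 fold change of -0.042 and a 95% interval of -0.16 to 0.074 (adjusted p = 0.553). Its partner subunits IDH3B (37.8 ± 1.83 and 38.2 ± 0.458 FPKM; adjusted p = 0.851) and IDH3G (14.4 ± 0.533 and 13.5 ± 1.58 FPKM; adjusted p = 0.437) did not pass the test either. The ratios of IDH3A to IDH3B (0.140 to 0.157 and 0.135 to 0.145) and to IDH3G (0.376 to 0.409 and 0.349 to 0.470) overlapped between the groups.

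OGDH, the decarboxylase of the alpha-ketoglutarate dehydrogenase complex, was lower in all LACTB libraries without passing the test. It stood at 38.1, 38.7 and 33.3 FPKM with empty vector and at 31.3, 32.9 and 33.2 FPKM with LACTB, so the third empty vector library sat just above the highest LACTB one. The log2 fold change was -0.17 (SE 0.063; adjusted p = 0.0815 by limma), and without empty vector replicate 3 it was -0.24 (adjusted p = 0.01). DLST, the core of the same complex, fell from 36.5 ± 0.852 to 32.8 ± 1.52 FPKM (adjusted p = 0.046), a call lost without any 1 of the 6 libraries (adjusted p = 0.0681 to 0.105). The OGDH to DLST ratio was 1.06, 1.08 and 0.890 with empty vector and 1.01, 0.979 and 0.983 with LACTB, with full overlap.

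SUCLG1, the alpha subunit that both succinyl-CoA ligases share, fell. It went from 21.1, 20.9 and 21.6 FPKM to 19.6, 18.1 and 17.5 FPKM, with LACTB replicate 1 closest to the empty vector libraries. The log2 fold change was -0.19 (SE 0.049; adjusted p = 0.0234 by limma), held without LACTB replicate 1 (adjusted p = 0.0126) and lost without each of the other 5 libraries (adjusted p = 0.0538 to 0.0855).

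Of its beta partners, 1 fell. SUCLA2, of the ATP-forming enzyme, went from 7.13 ± 0.239 to 6.31 ± 0.21 FPKM (log2 fold change -0.15; adjusted p = 0.0432 by limma), a call held without LACTB replicate 1 and lost without each of the other 5 libraries (adjusted p = 0.0557 to 0.135). SUCLG2, of the GTP-forming enzyme, stood at 30.1 ± 3.22 and 26.9 ± 0.784 FPKM (log2 fold change -0.15; adjusted p = 0.161), and its log2 fold change was -0.068 (adjusted p = 0.274) without empty vector replicate 3, its highest library. The ratio of SUCLG1 to SUCLA2 was 2.90 to 3.07 with empty vector and 2.84 to 2.996 with LACTB, which overlap (difference -0.028 on the log2 scale; exact permutation test, two-sided, p = 0.5, adjusted p = 0.714).

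FH, fumarase, was the most abundant member per exon length and fell least among those called. It stood at 44.7, 41.2 and 43.4 FPKM with empty vector and at 39.7, 39.1 and 38.3 FPKM with LACTB, with a narrow gap between the groups. The log2 fold change of FH was -0.14 (SE 0.043; adjusted p = 0.0448 by limma), a call held without empty vector replicate 2 (adjusted p = 0.0382) and lost without each of the other 5 libraries (adjusted p = 0.0702 to 0.136).

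MDH2, mitochondrial malate dehydrogenase, which closes the cycle, was the member whose LACTB libraries all lay higher. It stood at 22.2, 23.7 and 19.99 FPKM with empty vector and at 24.6, 23.9 and 24.8 FPKM with LACTB, with replicate 2 of the 2 groups almost level. Its log2 fold change was 0.15 (SE 0.062; adjusted p = 0.11 by limma), 0.087 without empty vector replicate 3 (adjusted p = 0.202), and the test was passed with voom on recovered reads (adjusted p = 0.0226).

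**Figure D3:**
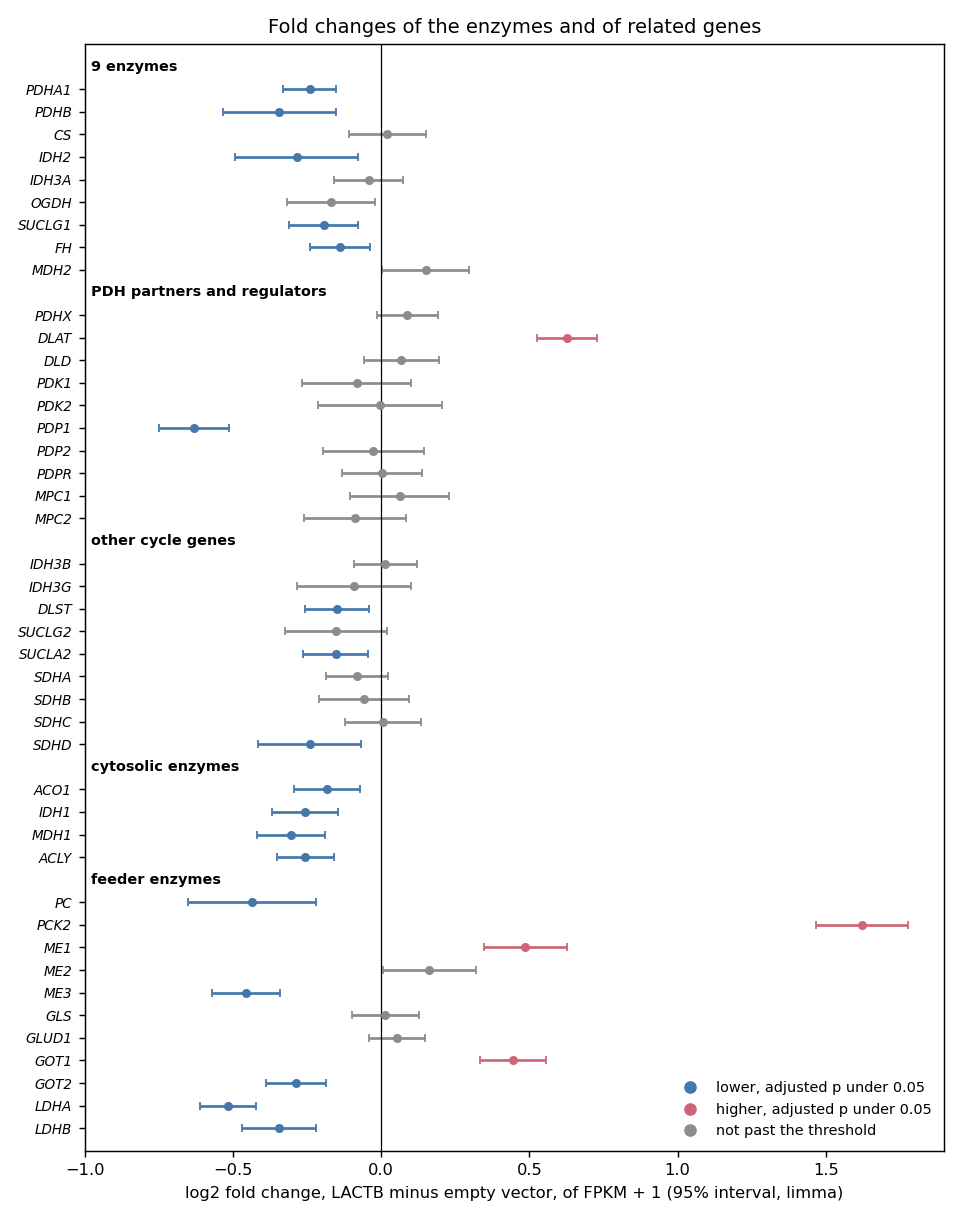
Log2 fold change of FPKM + 1, LACTB minus empty vector (horizontal axis), with the 95% interval from limma, for the 9 enzymes and 4 related gene lists; blue marks genes called lower, red genes called higher and grey the rest. The 9 enzymes lie between -0.34 and 0.15, while PCK2 reaches 1.62.

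Of 10 other genes of the cycle, a list that is not complete, 9 were tested: 3 fell (DLST, SUCLA2 and SDHD) and 6 did not pass the test. Over all tested genes, 17.2% fell and 14.8% rose. The median log2 fold change of the list was -0.091. SDHD, a membrane anchor of succinate dehydrogenase, went from 27.2, 26.5 and 32.4 FPKM to 24.3, 23.4 and 24.3 FPKM (log2 fold change -0.24; adjusted p = 0.0446 by limma), with empty vector replicate 3 far above the rest. Without that library the log2 fold change of SDHD was -0.16 (adjusted p = 0.0337). Its call was lost without empty vector replicate 1 or any LACTB library (adjusted p = 0.0577 to 0.13).

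In a list of 4 cytosolic enzymes that handle the same metabolites, all 4 were called lower, against 17.2% of all tested genes. With any 1 library left out, 3 or 4 were lower, and the median log2 fold change of the list was -0.26. The list is not complete: the cytosolic GOT1 and ME1, given below, rose. MDH1, the cytosolic malate dehydrogenase, fell from 30.2, 28.7 and 32.1 FPKM to 24.9, 24.1 and 24.1 FPKM (log2 fold change -0.30, SE 0.049; adjusted p = 0.00422 by limma). The ratio of MDH2 to MDH1 thus stood at 0.735, 0.825 and 0.623 with empty vector and at 0.985, 0.993 and 1.03 with LACTB, without overlap (difference 0.47 on the log2 scale, exact permutation test, two-sided, p = 0.1, adjusted p = 0.333). IDH1, the cytosolic NADP enzyme, fell from 15.1 ± 0.77 to 12.5 ± 0.199 FPKM (adjusted p = 0.00689; 0.0562 as TPM), and the ratio of IDH2 to IDH1 overlapped between the groups (0.296 to 0.370 and 0.293 to 0.360). ACLY, which splits exported citrate for lipid synthesis, fell from 80.6 ± 2.73 to 67.3 ± 1.29 FPKM (adjusted p = 0.00416). With CS near level, the ratio of CS to ACLY went from 0.426 to 0.463 up to 0.535 to 0.551, again without overlap. The exact permutation test of this ratio, two-sided, gave p = 0.1 (adjusted p = 0.333).

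**Figure D4:**
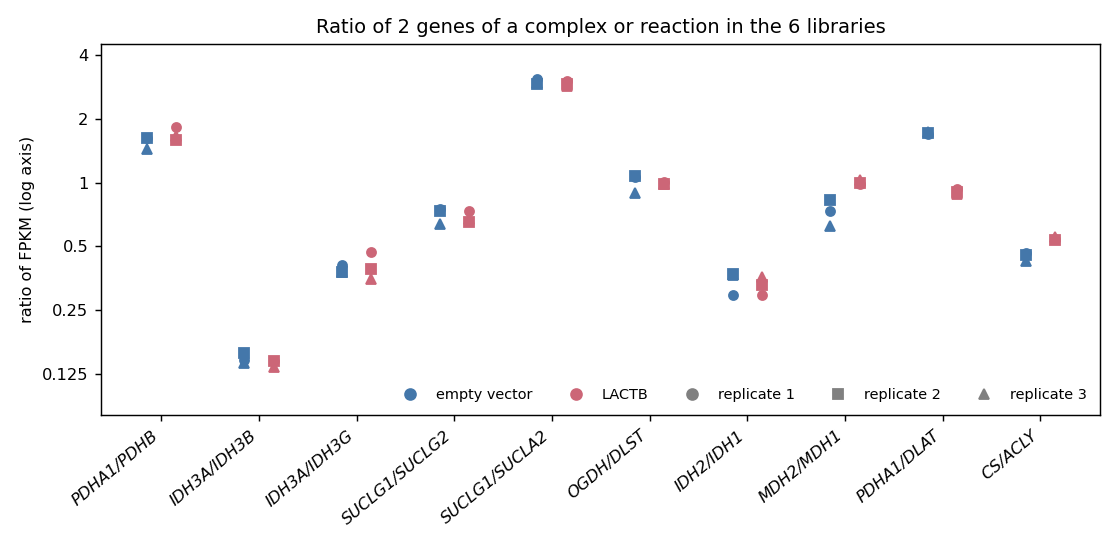
Ratio of the FPKM of 2 genes (vertical log axis) in each library, for the 10 pairs computed; blue is empty vector, red is LACTB and symbols give the replicate. The groups separate for MDH2/MDH1, PDHA1/DLAT and CS/ACLY and overlap for the other 7 pairs.

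Among 11 enzymes that feed or drain pyruvate, oxaloacetate, malate and glutamate, all tested, 3 rose and 5 fell, and these counts did not change without any 1 library. PCK2, which links oxaloacetate to phosphoenolpyruvate in mitochondria, rose from 5.85, 5.85 and 5.14 FPKM to 18.1, 20.6 and 19.4 FPKM (log2 fold change 1.62, SE 0.066; adjusted p = 1.08e-05 by limma). The cytosolic transaminase GOT1 rose from 14.4 ± 0.614 to 19.96 ± 0.712 FPKM, while the mitochondrial GOT2 fell from 76.1 ± 3.30 to 62.1 ± 0.38 FPKM (adjusted p = 0.000745 and 0.00305). Among malic enzymes, the cytosolic ME1 rose from 8.07 ± 0.316 to 11.7 ± 0.853 FPKM and the mitochondrial ME3 fell from 10.2 ± 0.306 to 7.19 ± 0.331 FPKM (adjusted p = 0.00129 and 0.000712). ME2, also mitochondrial and named here after its values were seen, stood higher in all LACTB libraries without passing the test (2.30 ± 0.147 and 2.69 ± 0.1705 FPKM; adjusted p = 0.11), and passed it with voom (adjusted p = 0.0111) and with GC and length trends removed (0.0317). LDHA, which turns pyruvate into lactate, fell from 229.9 ± 3.20 to 160.5 ± 4.29 FPKM (log2 fold change -0.52; adjusted p = 0.000192 by limma). Of 6 tested genes of lipoate synthesis and thiamine supply, from a list of 8, none passed the limma test, against 32.0% of all tested genes. At an unadjusted p under 0.05, 1 was higher and 1 lower, against 2361 and 2668 of all 11875 genes. With voom, 1 passed as higher.

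How far empty vector replicate 3 stood from the other empty vector libraries differed by member. It lay 18.0% above their mean for PDHB and 17.1% above for IDH2, whereas it was lower for OGDH (by 13.2%), MDH2 (12.9%) and CS (11.6%). For PDHA1, SUCLG1, FH and IDH3A it lay within 5% of them. Without this library the number of members called lower was 3, namely PDHA1, PDHB and OGDH. IDH2, SUCLG1 and FH then missed the threshold (adjusted p = 0.111, 0.0553 and 0.0811).

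**Figure D5:**
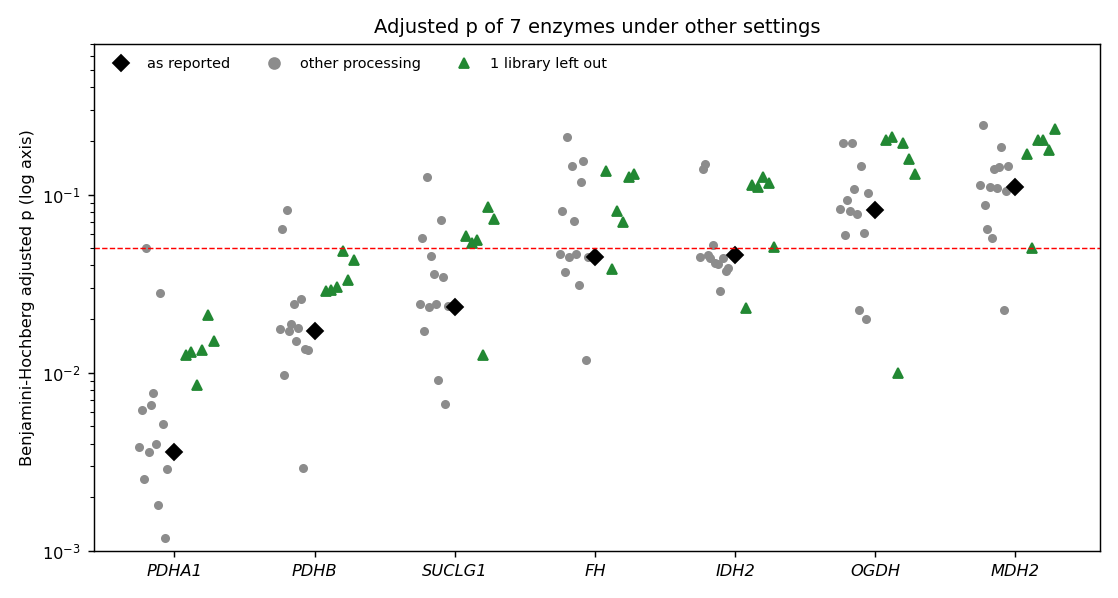
Benjamini-Hochberg adjusted p (vertical log axis) of the 7 enzymes whose groups do not overlap: black diamonds are the reported values, grey circles other processing, green triangles fits with 1 library left out, and the red line is 0.05. PDHA1 and PDHB stay under the line in all 6 leave-one-out fits, whereas SUCLG1, FH, IDH2 and OGDH do so in 1 of 6 and MDH2 in 0.

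By FPKM with empty vector, the order from high to low was FH (43.1), OGDH (36.7), CS (36.1), PDHA1 (22.2), MDH2 (22.0), SUCLG1 (21.2), PDHB (14.3), IDH3A (5.58) and IDH2 (5.197). The library ranges of the neighbours OGDH and CS, PDHA1 and MDH2, MDH2 and SUCLG1, and IDH3A and IDH2 overlapped, so their order is not settled. In the LACTB libraries CS ranked above OGDH and MDH2 above PDHA1. These levels divide by the merged length of all annotated exons, which for PDHB is 4717 bases against 1527 for its longest principal transcript, and for SUCLG1 4286 against 1475. Per length of that transcript, the same reads put CS first (77.7 ± 5.44), then SUCLG1 (61.6 ± 1.01), FH (51.4 ± 2.08), OGDH (45.7 ± 3.67), PDHB (44.1 ± 4.33), MDH2 (36.2 ± 3.04), PDHA1 (30.1 ± 0.76), IDH3A (9.23 ± 0.175) and IDH2 (5.43 ± 0.638), in FPKM recomputed with the transcript length. Levels and ratios between genes thus depend on the length used, while the percent change of 1 gene's FPKM does not. The log2 fold changes of FPKM + 1 also depend on it, through the added 1, and were not recomputed with the transcript length. Exons of PDHA1 share 956 bases with MAP3K15 on the other strand, those of IDH3A 2608 bases with ACSBG1 and those of PDHB 360 bases with an antisense gene. These neighbours held 252, 16 and 12 reads over all libraries, against 9805, 4010 and 6394 for the members, and since use of strand is not stated, such reads cannot be told apart.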

How the data were processed

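Per the labels' protocols, RNA of 6 MUM2B samples was extracted with Trizol and made into NEBNext Ultra libraries for paired-end NovaSeq reads. The authors deposited 1 table of FPKM per library; the build GRCh38 (hg38) and the tools DESeq2 1.16.1, featureCounts 1.5.0-p3 and HISAT2 2.0.5 stand, without roles, in the submitters' processing notes. The sources used here give neither strand use, multi-mapping nor annotation release. All 58735 gene IDs matched GENCODE 29. FPKM times merged exon length gave whole reads for 100% of values above 0 (tolerance 0.1 reads).

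Tests were limma 3.58.1 in R 4.3.3 (eBayes with trend) on log2(FPKM + 1), which understates the change of low genes, for the 11875 genes averaging 1 FPKM or more, with Benjamini-Hochberg adjustment over all of them. "Rose", "fell" and "called" mean an adjusted p under 0.05. Ratios used exact permutation tests (scipy 1.17.1). The labels do not say that replicates were separate cultures, so p-values measure the spread between these libraries, which may be technical. No pair of libraries agreed within sampling noise (chi-square per degree of freedom 2.02 to 12.4).

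The named genes are the 9 members, LACTB, the subunits that share a complex with a member, the ratio partners and the pyruvate dehydrogenase kinases and phosphatases, whatever their values, and of each related list up to 3 higher and 3 lower called genes with the smallest p; ME2 was added after its values were seen. 2 genes of the lists are not reported here and were left out of the counts. Members and lists were chosen with earlier results of these data known. Alternatives were pseudocount 0.1, no filter, a minimum of 5 FPKM, rescaling to TPM, to median-of-ratios factors or by quantiles, no trend, robust eBayes, library weights, a replicate block, voom on recovered reads (library totals as scaling), adjusted p under 0.01 and each library left out. Removal of GC and length trends, scaling to nuclear genes and levels per transcript length were added after seeing the data. Promoters are RefSeq's (GRCh38.p14), found for 8 of 9 members; OGDH had no entry.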

Additional observations from a re-analysis of the deposited data

How the results depend on the processing

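LACTB kept its direction and call in all alternatives run, and so did DLAT, PDP1, MDH1 and ACLY. The number of members called lower (5) was 0 as TPM, 1 without a filter, 3 when the variance trend was dropped, 3 with the replicate block, 1 at an adjusted p under 0.01 and 2 to 3 with 1 library left out; the number called higher (0) was 1 with voom. Over all tested genes the share called lower, 17.2% as reported, was 8.06% as TPM, 4.58% without a filter, 16.5% without the trend, 11.1% with the replicate block and 11.7% to 15.2% with 1 library left out. For an adjusted p under 0.01 the share over all tested genes was not computed. Genes called higher outnumbered those called lower as TPM (1615 against 1295) and with voom (2353 against 1942). As TPM, 16070 genes were tested. Log2 fold changes that missed the threshold were then those of PDHA1 (-0.23), PDHB (-0.34), IDH2 (-0.30), SUCLG1 (-0.18) and FH (-0.12). Without a filter, where more genes are tested, they were PDHB (-0.34), IDH2 (-0.28), SUCLG1 (-0.19) and FH (-0.14). IDH2 (-0.28) and FH (-0.14) also missed it without the trend, and FH after quantile normalization (-0.092) and with voom (-0.11). With 1 library left out, values ran from -0.36 to -0.22 for IDH2, -0.24 to -0.16 for SUCLG1, -0.17 to -0.11 for FH, -0.24 to -0.13 for OGDH and -0.038 to 0.053 for CS. OGDH passed with library weights (-0.19) and GC and length trends removed (-0.18), and MDH2 with voom (0.19). CS turned to -0.011 with library weights. The cause of these moves was not tested, except that fewer libraries were fitted when 1 was left out. IDH2 could not be tested at a mean of at least 5 FPKM.

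The 3 other cycle genes called lower were 0 without a filter, as TPM, with the replicate block and at an adjusted p under 0.01, 1 after quantile normalization, without the trend and with voom, and 0 to 1 with 1 library left out. The 4 cytosolic enzymes called lower were 2 as TPM. In the lipoate and thiamine list, 1 was higher with library weights, voom or GC and length trends removed, and 1 lower with library weights or GC and length trends removed and 0 to 1 with 1 library left out. Signs near 0 turned for PDK2 (0.014 as TPM, 0.018 with library weights, 0.024 with voom, -0.056 to 0.044 with 1 library left out), PDP2 (-0.086 to 0.0071), IDH3B (-0.027 to 0.034) and IDH3G (-0.15 to 0.0024), and for the log2 ratio differences of IDH3A to IDH3G (-0.068 to 0.15), OGDH to DLST (-0.11 to 0.028) and IDH2 to IDH1 (-0.17 to 0.0060).

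The labels do not say whether libraries with the same replicate number were paired. Deviations of same-numbered libraries from their group means correlated at -0.13, 0.019 and -0.044 across genes, and those of other-numbered libraries at -0.060 to 0.11. Deviations within a group of 3 sum to 0, so these values are not independent and cannot settle pairing. With the replicate block, SUCLG1 (-0.19, adjusted p = 0.0721) and FH (-0.14, adjusted p = 0.118) missed the threshold, and no other member's call changed. IDH2 had the fewest reads of the members, at 190 to 292 a library. The part of depth in the loss of its call was not tested.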
